A study of Mus musculus with 4 samples.

Results

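The Mmp9-positive stromal cells were 135 of the 5586 cell barcodes that passed quality limits in the Abcg2-MDS/AML library, a share of 2.42% (exact Clopper-Pearson 95% interval 2.03 to 2.85%). They were barcodes of at least 2000 UMIs (unique molecular identifiers, which count captured transcript molecules), at least 500 genes and at most 10% mitochondrial UMIs. Each held 2 or more UMIs of Mmp9, at least 1 UMI of Pdgfra or Pdgfrb, and none of the blood cell genes Ptprc and Tyrobp. The same rule found 2 of 4973 barcodes in WT_A1, 6 of 5766 in NHD13Tg and 2 of 5158 in Control, so 145 of 21483 in all. Mmp9, the Pdgf receptors and the blood genes chose these cells, and their values below are a description of that choice.

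The series profiled mesenchymal stromal cells from C57BL/6 mice, 1 library per group, with droplet-based 3' RNA sequencing of single cells. WT_A1 had the genotype WT and stood beside NHD13Tg, the Nup98-HoxD13 model, in which a fusion of a nucleoporin and a homeobox gene drives myelodysplastic syndrome (MDS), a clonal disorder of blood formation. Control, also of genotype WT, stood beside the library of genotype Abcg2-MDS/AML, named for a drug efflux pump and for MDS and acute myeloid leukaemia. In all 4 groups, femora and tibiae were crushed and digested with collagenase, and CD45-TER119-CD31-CD140a+CD51+ cells were sorted. CD140a is the protein of Pdgfra and CD51 that of Itgav. The labels give no age, no number of mice per library, and no promoter or cell type that drives the fusion gene of NHD13Tg. What the Abcg2-MDS/AML genotype carries is not stated either. Each group is a single library, so no test between groups was possible, and every interval covers counting error only.

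Mmp9 encodes gelatinase B, a secreted metalloproteinase that cuts denatured collagen and the type IV collagen of basement membranes. Textbook sources of Mmp9 are neutrophils, macrophages and osteoclasts, and inflammatory cytokines acting through NF-kB and AP-1 switch the gene on in stromal cells. In marrow it is known for freeing soluble Kit ligand from the cell surface. Marrow reticular cells, which make Cxcl12, Kitl and Vcam1 around sinusoids, are the main stromal support of blood stem cells.

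Mmp9 stood at 1466 CPM (UMIs of a gene for every 1000000 UMIs, both summed over a group of barcodes) in the 135 members. Each member held between 2 and 57 Mmp9 UMIs, with a median of 5. Of the 135, 36 held 2 UMIs, 70 held 3 to 9 and 29 held 10 or more, and the 10 highest barcodes held 28.1% of the 985 Mmp9 UMIs. Just outside the limit, 84 stromal barcodes held a single Mmp9 UMI. Most members thus lay well above the limit, with a minority at it. Both Pdgf receptors were found in 78 members, Pdgfra alone in 16 and Pdgfrb alone in 41.

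Members were not unusually deep. Their median was 4331 UMIs (range 2021 to 15017), against 3986 in the 2719 other Pdgfra-positive barcodes of the library and 3818 in its 75 other marrow reticular barcodes, which held UMIs of at least 2 of Adipoq, Lepr and Esm1. Their median mitochondrial share was 1.51%, against 1.89% in the other Pdgfra-positive barcodes. A pair of libraries shared between 6 and 14 passing barcode sequences, and 1 of the 135 members had a barcode that also passed in NHD13Tg.

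Free RNA of this library, read from droplets of 1 to 100 UMIs, held Mmp9 at 118 CPM, while WT_A1 held 2.18, Control 7.33 and NHD13Tg 7.50 CPM. Barcodes of the library with neither Pdgf receptor and neither blood gene stood at 2.55 CPM, and 6 of 2213 of them (0.271%, 0.0996 to 0.589%) held 2 or more Mmp9 UMIs at a median of 4929 UMIs. Among all stromal barcodes, meaning those with a Pdgf receptor and no blood gene, the share was 135 of 3370 (4.01%, 3.37 to 4.72%) at a median of 3988 UMIs. These shares use the rule's own genes and are a description, and the part of free RNA in the members' Mmp9 UMIs was not tested.

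Most blood cell markers were near zero in the members, and the osteoclast list had a single gene with UMIs. Of 11 neutrophil genes, 9 were at 0 UMIs, including S100a8 and S100a9, the calprotectin subunits, and Csf3r, the receptor for granulocyte colony-stimulating factor. After thinning each barcode to 2000 UMIs, 1 of the 135 members held any neutrophil gene UMI (0.741%, against 0.772% of the other Pdgfra-positive barcodes). All 7 erythroid genes were at 0, as were 7 of 11 macrophage genes, among them the receptor Csf1r, and 6 of 7 osteoclast genes. That gene, Ctsk, the protease cathepsin K, stood at 296 CPM in 97 of the 135 members, against 584 CPM in the other Pdgfra-positive barcodes, 271 in the reticular ones and 371 in free RNA. Fcer1g, an Fc receptor adaptor of myeloid cells, was at 56.5 CPM, from 38 UMIs in 10 members, against 5.47 CPM in the other Pdgfra-positive barcodes and 84.5 CPM in the reticular ones. In the library, 3 passing barcodes held Ptprc or Tyrobp, and 1 of them held 2 or more Mmp9 UMIs.

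The sorted surface markers gave a mixed picture. Pdgfrb stood at 530 CPM in members against 101 in the other Pdgfra-positive barcodes, and Pdgfra at 296 against 541. Both are genes of the rule. Every reference barcode had to hold Pdgfra, while 41 members held Pdgfrb alone. These differences are thus partly set by the choice of groups. Within members, Pdgfrb was the more abundant of both receptors. Itgav, the integrin chain CD51 of the sort, was at 164 CPM against 44.9 (log2 ratio 1.87, 1.56 to 2.16). Pecam1, the CD31 of the negative gate, had 3 UMIs in all members (4.46 CPM against 4.63). Abcg2, for which the model is named, was at 37.2 CPM in members, 11.7 in the other Pdgfra-positive barcodes and 49.5 in the reticular barcodes.

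Mmp9 was also counted in barcodes chosen without it. Bst1 encodes CD157, a surface enzyme of stromal and myeloid cells, and 113 stromal barcodes of the Abcg2-MDS/AML library held it. Of these 113, 33 held 2 or more Mmp9 UMIs (29.2%, 21.0 to 38.5%). The other libraries had 16, 4 and 2 Bst1-positive stromal barcodes (WT_A1, NHD13Tg, Control), with 0 holding 2 Mmp9 UMIs, numbers too small to bound the share closely (upper limits 20.6, 60.2 and 84.2%).

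Marrow reticular barcodes gave larger denominators. Chosen by Adipoq, Lepr and Esm1 with Mmp9 not used, 15 of 90 held 2 or more Mmp9 UMIs in Abcg2-MDS/AML (16.7%, 9.64 to 26.0%), against 1 of 504 in WT_A1 (0.198%, up to 1.10%), 0 of 1259 in NHD13Tg (up to 0.293%) and 1 of 301 in Control (0.332%, up to 1.84%). Median depth in these barcodes was 3952 UMIs in Abcg2-MDS/AML, below the 4867 of WT_A1 and 4837 of NHD13Tg and above the 3732 of Control. The interval of Abcg2-MDS/AML did not overlap those of the other libraries. Mouse, sort and library cannot be told apart from genotype here.

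**Figure D1:**
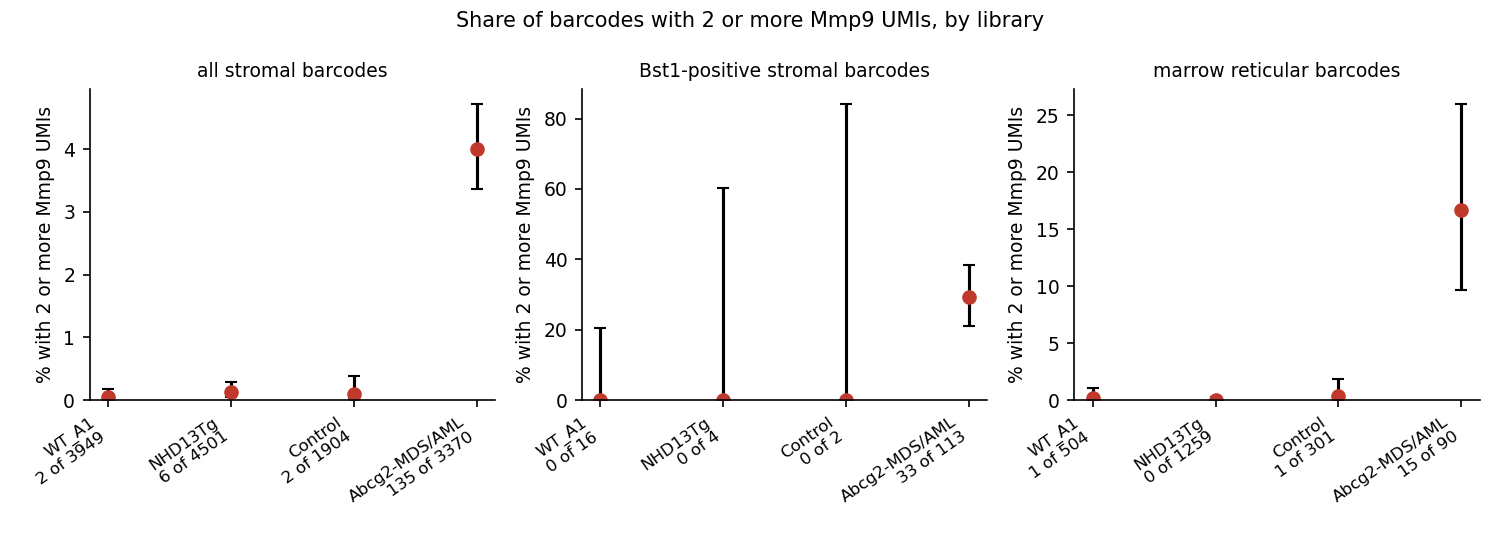
Percent of barcodes with 2 or more Mmp9 UMIs (vertical axis) in each of 4 libraries, among all stromal barcodes, Bst1-positive stromal barcodes and marrow reticular barcodes; points are shares and bars exact 95% intervals for counting error. Abcg2-MDS/AML stands at 4.01%, 29.2% and 16.7%, and no other library has a share above 0.332%.

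Members lay together when cells were clustered without the rule's genes. Of 14 clusters of the library's 5586 barcodes, cluster 7 held 127 of the 135 members (94.1%) among its 412 barcodes, of which members were 30.8%. Its leading genes were Mmp9 itself (not used in the clustering), the haemoglobin scavenger Hp, Serpina3g, Vcam1, Kitl, the iron carrier Trf, the interferon-induced chemokines Cxcl9 and Cxcl10, the protease Ctsc and the class I gene H2-Q7. Hp, Vcam1 and Kitl are marrow reticular markers, so the cluster was called marrow reticular-like, with immune genes among its leaders. It also held 68 of the 75 reticular barcodes and 62 of the 84 stromal barcodes with a single Mmp9 UMI.

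The share of stromal barcodes in cluster 7 went with their Mmp9 UMIs. It was 6.19% of 3151 barcodes with none, 73.8% of 84 with 1, 86.1% of 36 with 2, 95.7% of 70 with 3 to 9, and 100% of 29 with 10 or more. Barcodes with a single Mmp9 UMI, outside the rule, were thus mostly in the same cluster as the members. Cluster 13, led by the mural genes Rgs5, Acta2, Higd1b, Myh11 and Tagln, held 0 members among 55 barcodes.

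**Figure D2:**
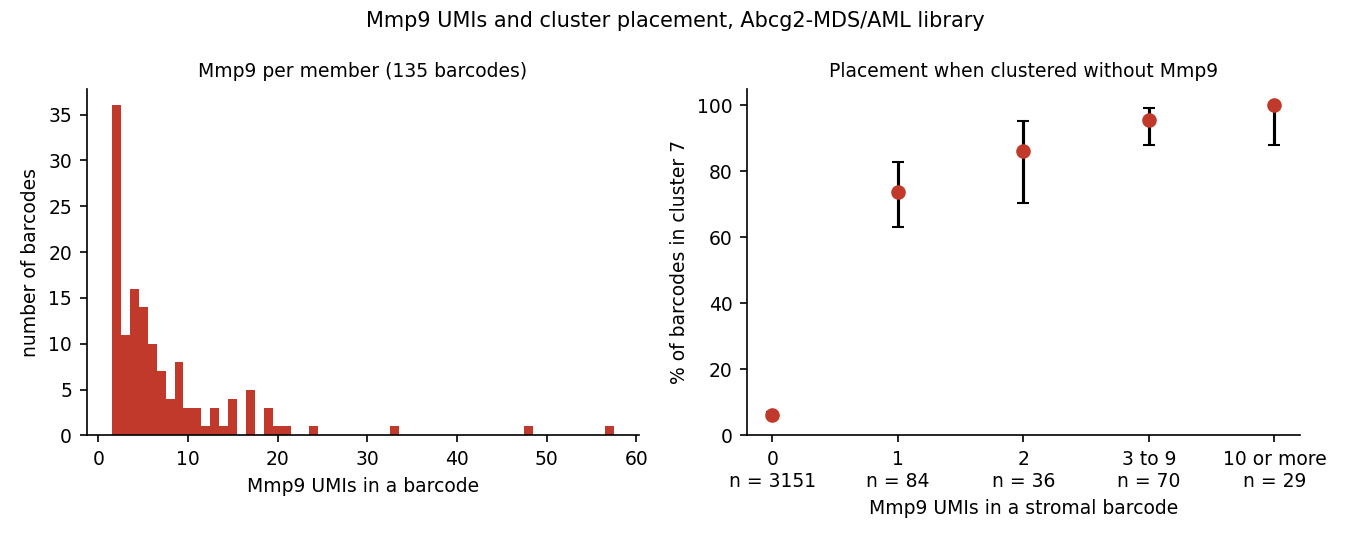
Left, number of member barcodes (vertical axis) by their Mmp9 UMIs, from 2 to 57; right, percent of stromal barcodes placed in cluster 7 (vertical axis, exact 95% intervals for counting error) by their Mmp9 UMIs, with the number of barcodes under each. The share in cluster 7 is 6.19% without an Mmp9 UMI and 73.8% with 1.

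The 8 members outside cluster 7 differed in depth and content. Their median was 12112 UMIs, they held 2 to 4 Mmp9 UMIs each, and 5 lay in cluster 2, which was led by cartilage collagens. Thinned to equal depth, they held Col2a1, the main cartilage collagen, at 3688 CPM against 27.6 in the members of cluster 7, and Prg4, the joint lubricant lubricin, at 7438 against 1055. Whether these barcodes hold RNA of more than 1 cell was not tested directly, and removing the barcodes of highest doublet score took 16 of the 135 members.

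Against the 2719 other Pdgfra-positive barcodes, members had 1077 genes at least 2-fold higher (17.5% of 6161 genes with at least 20 CPM in either group) and 399 at least 2-fold lower (6.48%), with counting intervals that left out 1. The median log2 ratio over 10121 genes with at least 5 CPM was 0.33, so a typical gene stood above 0 on the CPM scale. With the groups scaled by the median of gene ratios, all log2 ratios drop by 0.38 and the split becomes 635 higher and 639 lower. A log2 ratio near that shift is therefore no sign of a difference, list medians between 0 and 0.38 turn negative with that scaling, and the ratios below are to be read against it.

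Of the 6 proposed markers, Mmp9 is in the rule, 4 stood higher and 1 stood lower. Kitl, the Kit ligand that blood stem cells need, was at 735 CPM in members against 66.3 in the other Pdgfra-positive barcodes (log2 ratio 3.47, 3.31 to 3.63), and was found in 117 of the 135, with a median of 3 and a highest value of 15 UMIs. Apoe, a lipid carrier, was at 8096 CPM against 1006 (3.01, 2.96 to 3.05), in 132 members with a median of 33 UMIs. Both were broad features of the group, found in most members.

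Bst1 was at 84.8 CPM against 8.79 (3.28, 2.79 to 3.74), but only 33 of the 135 members held a UMI of it. C3, the central complement protein, was at 1498 CPM against 697 (1.10, 1.01 to 1.20), in 125 members. Neither gene was particular to the members. In 614 fibroblast barcodes of the library, with UMIs of at least 2 of Col14a1, Dpt and Clec3b, C3 was at 1846 CPM and Bst1 at 3.72. In 54 barcodes chosen by Chil1 and Mmp3, Bst1 was at 61.9 CPM and C3 at 1008. Serpina3n, an acute-phase protease inhibitor, went the other way, at 210 CPM against 575 (-1.45, -1.70 to -1.21), and 62 members held it. The data thus go against Serpina3n as a marker of these cells. Serpina3g, a close paralogue, was at 551 CPM against 32.0 (4.11, 3.90 to 4.31). It was at 393 CPM in the marrow reticular barcodes (log2 ratio of members 0.48, 0.20 to 0.78). In stromal non-members of the cluster that held most members, it was at 501 CPM (0.14, -0.06 to 0.33). Serpina3g of the members was thus near its level in the rest of their cluster. How near-identical paralogues of this family were told apart in counting is uncertain.

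Marrow reticular genes stood higher as a list. At the 1.5-fold limit used for lists, 9 of 15 were higher and 1 lower, with a median log2 ratio of 1.38, beside 23.4% of all 10121 measured genes higher, 8.22% lower and a median of 0.33. Hp was at 4563 CPM against 424 (3.43, 3.36 to 3.49), and Vcam1, the adhesion ligand of blood progenitors, at 1358 against 154 (3.14, 3.02 to 3.25). Hp was found in 116 members and Vcam1 in 129. The transcription factor Ebf3 was at 109 CPM against 26.2, and the leptin receptor Lepr at 268 against 103.

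Cxcl12, the chemokine that retains stem cells in marrow, was only modestly higher, at 925 CPM against 598 (log2 ratio 0.63, 0.51 to 0.75), and 96 of the 135 members held it. Gas6, a ligand of TAM receptors, was the gene of the list that stood lower, at 141 CPM against 747 (-2.39, -2.71 to -2.11). The members thus carried the Kitl, Hp and Vcam1 part of the reticular list strongly and the Cxcl12 and Gas6 part weakly.

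Fibroblast, tendon and cartilage genes stood lower. Of 10 fibroblast genes, 0 were higher and 9 lower, with a median log2 ratio of -4.07 (-3.50 with genes at 0 UMIs placed at their bound). Ly6a, the surface antigen Sca-1, was at 23.8 CPM against 608 (13.6 CPM without the barcode that held most of it), the actin-severing protein gene Gsn at 652 against 8794, and Col14a1, a fibril-associated collagen, had 1 UMI in all members (1.49 CPM against 189; log2 ratio -6.41, -12.3 to -4.51). Pi16, a marker of fibroblast progenitors, had 0 UMIs in members and was at least 7.60-fold lower. Without the barcodes of highest doublet score, the log2 ratios of Ly6a, Gsn and Dcn went from -4.63, -3.75 and -3.24 to -7.08, -5.52 and -4.23. Tendon genes had 0 of 6 higher and 5 lower, and cartilage genes 0 of 11 higher and 6 lower.

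Other genes with the largest ratios below the reference had few or no UMIs in members. The cytolinker gene Ppl and the secreted glycoprotein gene Dkk3 had 0 UMIs, at least 12.6-fold and at least 9.90-fold lower. Chil1, a chitinase-like secreted protein, was at 28.3 CPM against 1693, and Mmp3, stromelysin-1, had 2 UMIs, at 2.98 CPM against 160 (log2 ratio -5.43, -8.79 to -3.89). Both genes lead a class of 54 barcodes of this library chosen by them, in which Mmp9 stood at 2.58 CPM.

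**Figure D3:**
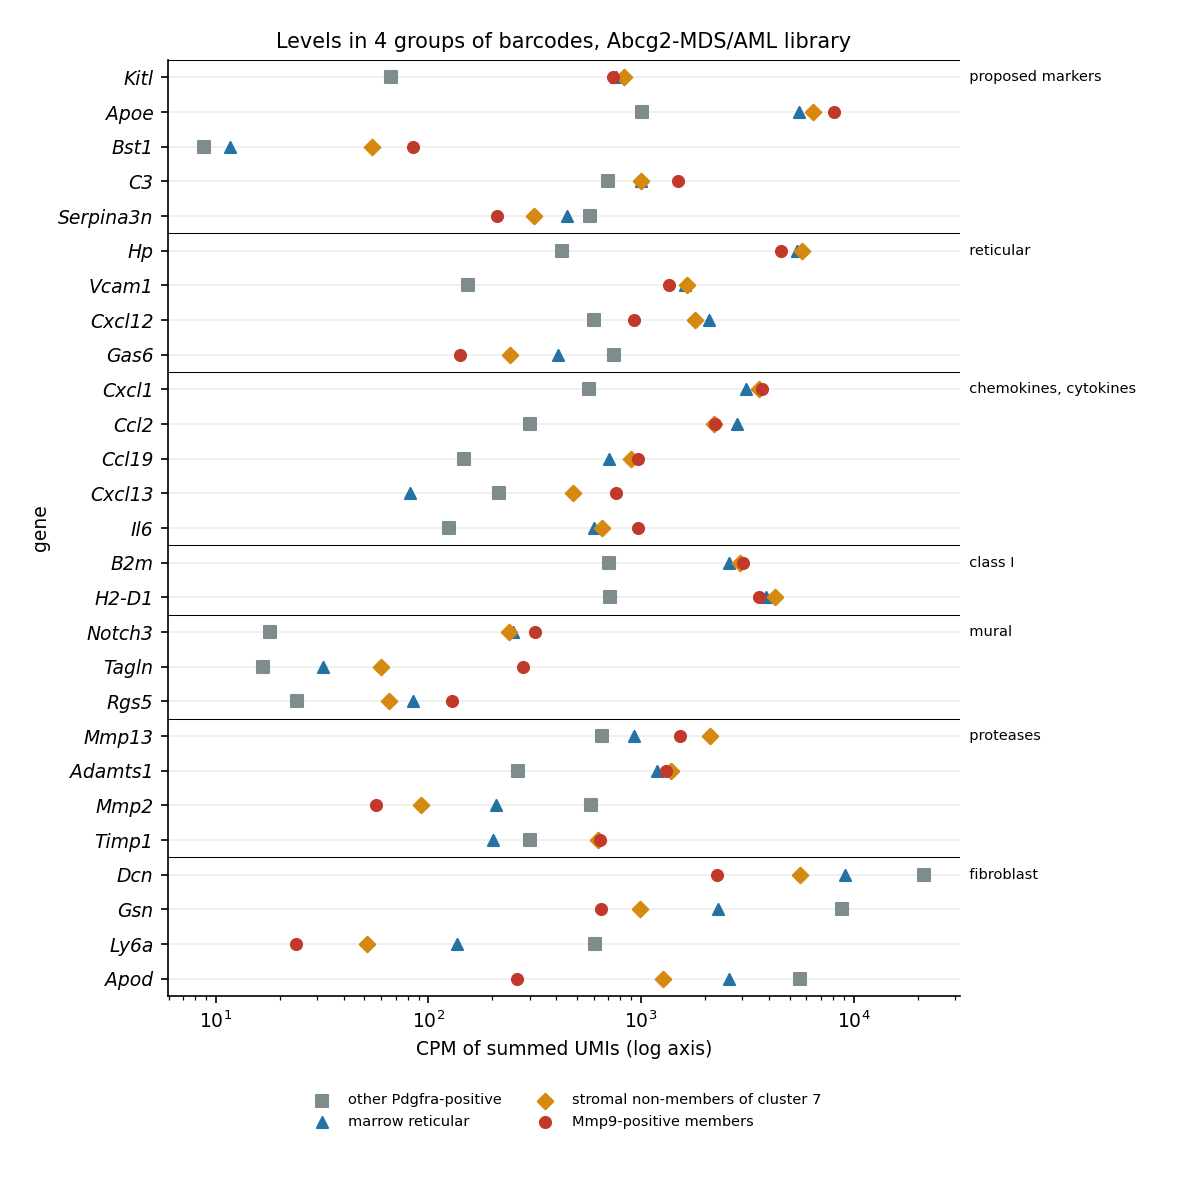
Level of named genes in CPM of summed UMIs (horizontal log axis) in 4 groups of barcodes of the Abcg2-MDS/AML library: the 135 members, the 75 marrow reticular barcodes, the stromal non-members of cluster 7 and the 2719 other Pdgfra-positive barcodes. Kitl, Hp and Vcam1 of members lie near those of the marrow reticular barcodes and Dcn and Apod lie lowest in members, whose Serpina3n of 210 CPM is below the 575 of the other Pdgfra-positive barcodes.

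The largest ratios above the reference included genes of signalling in smooth muscle and pericytes. Adra2a, an adrenergic receptor, was at 78.9 CPM against 2.70 (log2 ratio 4.86, 4.23 to 5.53), in 31 members. Gucy1a3, a subunit of the nitric oxide receptor, was at 229 CPM against 8.64 (4.73, 4.37 to 5.09), in 61 members. Notch3, the Notch receptor of mural cells, was at 315 CPM against 18.0 (4.13, 3.86 to 4.41), in 89 members. Serpina12, the adipokine vaspin, had the largest ratio by the ranking used (5.45, 4.31 to 6.80), from 21 UMIs in 16 members, at 31.2 CPM against 0.694. The calcium channel gene Trpc6, the phosphodiesterase gene Pde2a, the growth factor gene Pgf and the forkhead factor gene Foxs1 were also among the 15 largest. In the marrow reticular barcodes, Notch3 was at 250 CPM (log2 ratio of members 0.33, -0.04 to 0.71). Gucy1a3 was at 96.1 CPM there, Serpina12 at 8.74 and Adra2a at 2.91. Notch3 of the members was thus near its level in reticular barcodes.

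Mural cell markers stood higher as a list, 10 of 11 higher and 1 lower, with a median log2 ratio of 2.91. Tagln, a smooth muscle actin-binding protein, was at 278 CPM against 16.7 (4.06, 3.77 to 4.35), and Acta2, smooth muscle actin, at 115 against 18.3 (2.65, 2.25 to 3.02). Only 31 members held Tagln and 21 held Acta2, and Tagln was at 226 CPM without the barcode that held most of it. Rgs5, a pericyte gene, was at 129 CPM against 24.1, and Cspg4, the NG2 proteoglycan, was the lower one, at 20.8 against 36.0.

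Free RNA held these genes as well, Acta2 at 97.2 CPM, Tagln at 93.3 and Rgs5 at 163, and its part in the members' values was not tested. After thinning, 79 of 135 members (58.5%) held a UMI of any mural gene, against 14.9% of the other Pdgfra-positive and 50.7% of the reticular barcodes. The reference required Pdgfra while the members did not. In the 94 members with Pdgfra, Notch3 was at 283 CPM, Tagln at 172 and Acta2 at 52.4, and in the 41 with Pdgfrb alone these were at 395, 538 and 267. Tagln and Acta2 were thus higher in the members without Pdgfra, and the 94 with Pdgfra still stood above the reference for all of Notch3, Tagln and Acta2.

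Chemokine genes had 14 of 17 higher and 2 lower, with a median log2 ratio of 2.70. Cxcl1, a neutrophil attractant, was at 3693 CPM in members against 570 (2.70, 2.63 to 2.76), in 108 of 135 members. Ccl2, which attracts monocytes, was at 2221 against 301 (2.88, 2.80 to 2.97), in 101 members. Cxcl9 and Cxcl10, which attract T cells and are induced by interferon, were at 628 against 39.6 CPM and 818 against 87.5. These were among the most abundant chemokines of the members.

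Ccl19, a homing chemokine of lymph node stroma, was at 967 CPM against 146 (2.72, 2.59 to 2.85), in 108 members. Cxcl13, which attracts B cells, was at 763 CPM against 214, but 1 barcode held 231 of its 513 UMIs, and without it the level was 422 CPM. Its log2 ratio was 1.83, and 0.78 among barcodes of at least 4000 UMIs. Ccl5, an attractant of T cells and monocytes, was at 143 CPM against 2.08, with 65.6% of its UMIs in 1 barcode, and at 49.5 CPM without it, in 9 members. Ccl11, an eosinophil attractant, and Ccl8, a monocyte attractant, were the genes of the list that stood lower, Ccl11 at 7.44 against 102 CPM and Ccl8 with 0 UMIs, at least 10.7-fold lower.

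Genes of NF-kB signalling had 20 of 23 higher and 1 lower, with a median log2 ratio of 1.47. Il6, a cytokine of inflammation and blood formation, was at 966 CPM against 125 (2.95, 2.82 to 3.08), in 74 members. Nfkbia, the inhibitor that NF-kB itself induces, was at 2413 CPM against 1238 (0.96), Sod2, a mitochondrial antioxidant enzyme, at 376 against 136 (1.47), and Birc3, an apoptosis inhibitor, at 179 against 37.0 (2.27). Tnfrsf11b, the decoy receptor osteoprotegerin, was the lower one, at 32.7 CPM against 101 (-1.59). AP-1 and immediate early genes had 2 of 20 higher and 0 lower, with a median of 0.24, below the median of all genes.

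Promoters of the chemokine and NF-kB lists were searched for the NF-kB motif, whether or not a gene stood higher in members. GGG and CC separated by any 5 bases were looked for on both strands in the 250 bases upstream of each start in RefSeq's GRCm38.p6 annotation. This motif was found in 45.8% of 32851 promoters. Promoters of the chemokine list, matched for 15 of 23 genes, held it in 10 of 15 (66.7%), and those of the NF-kB list, matched for 21 of 26 genes, in 21 of 24 (87.5%). The NF-kB list was made of NF-kB subunits, feedback genes and targets, so its share says nothing about these cells. The 15 genes of largest ratio above the other Pdgfra-positive barcodes, matched for 10, held the motif in 9 of 15 promoters (60%). For the 15 of largest ratio below, also matched for 10, it was 4 of 12 (33.3%). The AP-1 motif TGANTCA was in 6.75% of all promoters, in 2 of 15 of the chemokine list (13.3%) and in 4 of 24 of the NF-kB list (16.7%). A match is a description of letters, not a bound site. The promoters of Mmp9 and Ccl2 were not matched. Those of Cxcl1 (chr5:90890995-90891244, plus strand), Il6 (chr5:30012864-30013113, plus strand) and Nfkbia (chr12:55492648-55492897, minus strand) are shown because Cxcl1 was the most abundant chemokine of the members and Nfkbia and Il6 were the most abundant genes of the NF-kB list. Capitals mark motif matches, overlapping ones run together, and in Il6 the first capitals are the AP-1 match while the other capitals are NF-kB matches.
Cxcl1: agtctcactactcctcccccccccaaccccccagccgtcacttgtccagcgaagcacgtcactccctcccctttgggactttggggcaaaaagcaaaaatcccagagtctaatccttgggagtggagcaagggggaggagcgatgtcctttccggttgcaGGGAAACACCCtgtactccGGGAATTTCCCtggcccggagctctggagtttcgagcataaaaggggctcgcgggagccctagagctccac
Il6: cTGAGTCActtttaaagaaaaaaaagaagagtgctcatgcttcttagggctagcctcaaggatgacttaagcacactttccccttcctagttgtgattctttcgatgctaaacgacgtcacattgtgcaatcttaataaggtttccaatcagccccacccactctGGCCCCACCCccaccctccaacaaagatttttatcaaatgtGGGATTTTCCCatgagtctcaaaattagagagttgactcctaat
Nfkbia: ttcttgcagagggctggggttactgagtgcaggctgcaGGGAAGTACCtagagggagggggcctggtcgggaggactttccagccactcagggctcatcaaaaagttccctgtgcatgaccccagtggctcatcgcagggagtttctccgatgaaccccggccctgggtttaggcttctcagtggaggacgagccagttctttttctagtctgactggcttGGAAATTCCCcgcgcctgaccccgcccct

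Cxcl1 had 4 overlapping matches in 2 stretches, starting between 90 and 70 bases before the start, and Il6 had 3, at 85 to 43 bases before it. The Nfkbia matches began 212 and 29 bases before the start.

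Interferon response genes had 21 of 30 higher and 2 lower, with a median log2 ratio of 1.90. B2m, the light chain of class I molecules, was at 3015 CPM against 708 (2.09, 2.02 to 2.16), and was found in 134 of the 135 members with a median of 14 UMIs. The class I heavy chains H2-D1 and H2-K1 were at 3584 against 718 and 2091 against 284, although near-identical class I genes can share reads. Isg15, a ubiquitin-like protein, was at 207 CPM against 18.9 (3.45), and Psmb8, an immunoproteasome subunit, at 83.3 against 15.9 (2.40). B2m and H2-D1 were found in all but 1 of the members.

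Among other metalloproteinases, 9 of 18 measured genes were higher and 4 lower, with a median log2 ratio of 0.65. Mmp13, a collagenase that cuts fibrillar collagen, was at 1525 CPM against 657 (1.22, 1.12 to 1.31), in 91 members. Adamts1, Adamts4 and Adamts9, proteases of aggregating proteoglycans, were at 1314 against 265, 257 against 29.1 and 112 against 7.94 CPM. Mmp2, the other gelatinase, was in contrast at 56.5 CPM against 580 (-3.34, -3.86 to -2.90), and Adamts5 at 107 against 562 (-2.38). Mmp14, a membrane-bound activator of Mmp2, was at 324 against 224 CPM (0.54). Of the 2 gelatinases, Mmp2 was thus lower in members than in the other Pdgfra-positive barcodes, while the Mmp9 difference was set by the rule.

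Inhibitors and activators of these proteases were mixed, 6 of 13 higher and 4 lower, with a median log2 ratio of -0.31. Timp1, which binds pro-Mmp9, was at 638 CPM against 301 (1.08, 0.94 to 1.23), whereas Timp2, which binds pro-Mmp2, was at 490 against 1102 (-1.17). Plat, tissue plasminogen activator, was at 147 CPM against 33.1 (2.16). Lcn2, which forms a complex with Mmp9 in neutrophils, had 2 UMIs in all members (2.98 CPM against 171; log2 ratio -5.52, -8.89 to -3.99). In the stromal non-members of cluster 7, where Mmp9 was at 61.0 CPM, Timp1 was at 631 CPM, near the members' level.

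Of 27 matrix genes, many of them gelatinase substrates, 11 were higher and 8 lower, with a median log2 ratio of 0.17. The basement membrane chains Col4a1 and Col4a2 were at 1183 against 474 CPM (1.32) and 556 against 212 (1.40), and the microfibrillar chains Col6a1 and Col6a2 at 1061 against 275 (1.95) and 579 against 125 (2.22). Col1a1, the chain of bone and tendon collagen, was at 445 against 1388 (-1.64), and the proteoglycans Dcn and Lum at 2272 against 21446 (-3.24) and 123 against 1574 (-3.66). Bgn, biglycan, a proteoglycan of the same family as Dcn and Lum, was in contrast at 1787 CPM against 893 (log2 ratio between 0.91 and 1.09), in 132 members. Col4a1, Col4a2, Col6a1, Col6a2 and Bgn were thus higher and Col1a1, Dcn and Lum lower.

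Niche factors for blood cells had 11 of 20 higher and 5 lower, with a median log2 ratio of 0.87. Besides Kitl, Vcam1 and Il6, Csf1, the macrophage growth factor, was at 311 CPM against 73.6 (2.08), Il34, which shares its receptor, at 182 against 15.7 (3.53), and Lif at 32.7 against 2.62 (3.65). Igf1 was at 23.8 CPM against 64.6 (-1.40). Secreted modulators of IGF, BMP and Wnt signalling had 8 of 27 higher and 14 lower, with a median of -0.86. Igfbp7 was among the higher ones at 5962 CPM against 1872, and Igfbp6 among the lower at 113 against 1569. For Igfbp6, 1 barcode held 43.4% of the members' UMIs, the level without it was 64.6 CPM, and the log2 ratio went from -3.78 to -5.73 without the barcodes of highest doublet score.

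The remaining lists were less one-sided. Acute-phase and liver-like genes had 12 of 22 higher and 8 lower (median 0.96), lipid and sterol genes 14 of 26 and 5 (0.81), surface enzymes and markers 9 of 21 and 8 (0.58), and stromal transcription factors 13 of 40 and 11 (0.15). Complement had 3 of 11 higher and 3 lower (0.03), and osteolineage genes 1 of 10 and 5 (-1.13). Apod, a lipocalin, was at 262 CPM against 5592, Enpp2, which makes lysophosphatidic acid, at 763 against 120, and the homeobox gene Meox1 at 161 against 11.0.

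Members were also compared with the 75 marrow reticular barcodes of the library. The 2-fold rule was passed upward by 227 of 6472 genes (3.51%) and downward by 252 (3.89%), and the median log2 ratio over 10335 measured genes was -0.05. Kitl stood at 735 CPM in members and 763 in reticular barcodes (-0.06, -0.27 to 0.17), Hp at 4563 and 5397 (-0.24), Vcam1 at 1358 and 1611 (-0.25) and H2-D1 at 3584 and 3856 (-0.11). For Kitl the interval of the ratio leaves out a 1.5-fold difference in either direction at this depth.

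Inflammatory lists were near 0 in that comparison. At the 1.5-fold limit, which 3.92% of measured genes passed upward and 3.9% downward, chemokines had 3 of 18 higher and 4 lower (median log2 ratio 0.03), NF-kB genes 2 of 23 and 0 (-0.02) and interferon response genes 2 of 31 and 3 (-0.04). Cxcl1 was at 3693 CPM in members and 3105 in reticular barcodes, Ccl2 at 2221 and 2831, Il6 at 966 and 600 and B2m at 3015 and 2583. The levels of these lists in members thus lay near those of the reticular barcodes.

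Of 15 marrow reticular genes, 0 stood higher and 7 lower in members (median log2 ratio -0.76), and Kitl, Hp and Vcam1 did not pass the limit. Adipoq, Lepr and Esm1 chose the reference, so their lower values in members (Adipoq at 46.1 CPM against 341, Lepr at 268 against 941) are set by that choice. The count of lower genes and the median of the list include these genes, so they are partly set by it too. Cxcl12 was at 925 against 2085 CPM (-1.17, -1.33 to -1.01), Gas6 at 141 against 405 (-1.52, -1.91 to -1.13), the BMP antagonist Grem1 at 37.2 against 131 (-1.80) and Igf1 at 23.8 against 154 (-2.67). Cbln1, a synaptic organiser, was at 14.9 CPM against 186 (-3.59, -4.77 to -2.68), and Fgf7 at 13.4 against 78.6 (-2.50). The secreted modulators of IGF, BMP and Wnt signalling had 3 of 25 higher and 16 lower, with a median of -1.10.

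Mural, matrix and metalloproteinase genes were among the lists with more genes higher than lower. Mural genes had 5 of 11 higher and 0 lower (median log2 ratio 1.75, or 0.96 with genes at 0 UMIs placed at their bound), matrix genes 12 of 27 and 4 (0.63), and metalloproteinases 7 of 19 and 3 (0.37). Surface enzymes and markers had 7 of 17 higher and 1 lower (0.28), cartilage genes 3 of 11 and 0 (0.48), osteolineage genes 3 of 9 and 1 (0.38), protease inhibitors and activators 3 of 12 and 0 (0.23) and synovial lining genes 2 of 8 and 0 (0.75, or 0.18 with genes at 0 UMIs at their bound). All 11 cartilage genes were at or under their level in free RNA. The same held for 7 of 9 osteolineage genes, 5 of 8 synovial lining genes and 5 of 12 protease inhibitors and activators. It also held for 6 of 17 surface enzymes and markers, 8 of 27 matrix genes, 3 of 11 mural genes and 3 of 19 metalloproteinases. Acta2 had 0 UMIs in the reticular barcodes and was at least 13.1-fold higher in members, and Tagln was at 278 against 32.0 CPM (3.06, 2.25 to 4.15). The reticular barcodes had to hold Pdgfra, and in the 94 members with Pdgfra, Acta2 was at 52.4 CPM and Tagln at 172. Without the barcode that held most of it, Acta2 was at 93.2 CPM in all members, under its free RNA level given above. Adra2a was at 78.9 CPM against 1 UMI (4.19, 2.22 to 10.1), and Rarres1, a retinoid-responsive gene, at 96.7 against 2 UMIs (3.74, 2.14 to 7.13).

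Several abundant genes followed the same direction. Timp1 was at 638 CPM against 201 (1.66, 1.30 to 2.06), Col6a2 at 579 against 186 (1.63), Col4a1 at 1183 against 580 (1.03), Enpp2 at 763 against 312 (1.29), Apoe at 8096 against 5528 (0.55, 0.47 to 0.63) and Bst1 at 84.8 against 11.6 (2.71, 1.43 to 4.79). Spp1, osteopontin, was at 4279 against 1165 CPM, although 21.8% of its member UMIs came from 1 barcode and free RNA held it at 5742 CPM. Fn1 was at 972 against 384 CPM, with 57.0% of its member UMIs in 1 barcode and a level of 425 CPM without it.

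**Figure D4:**
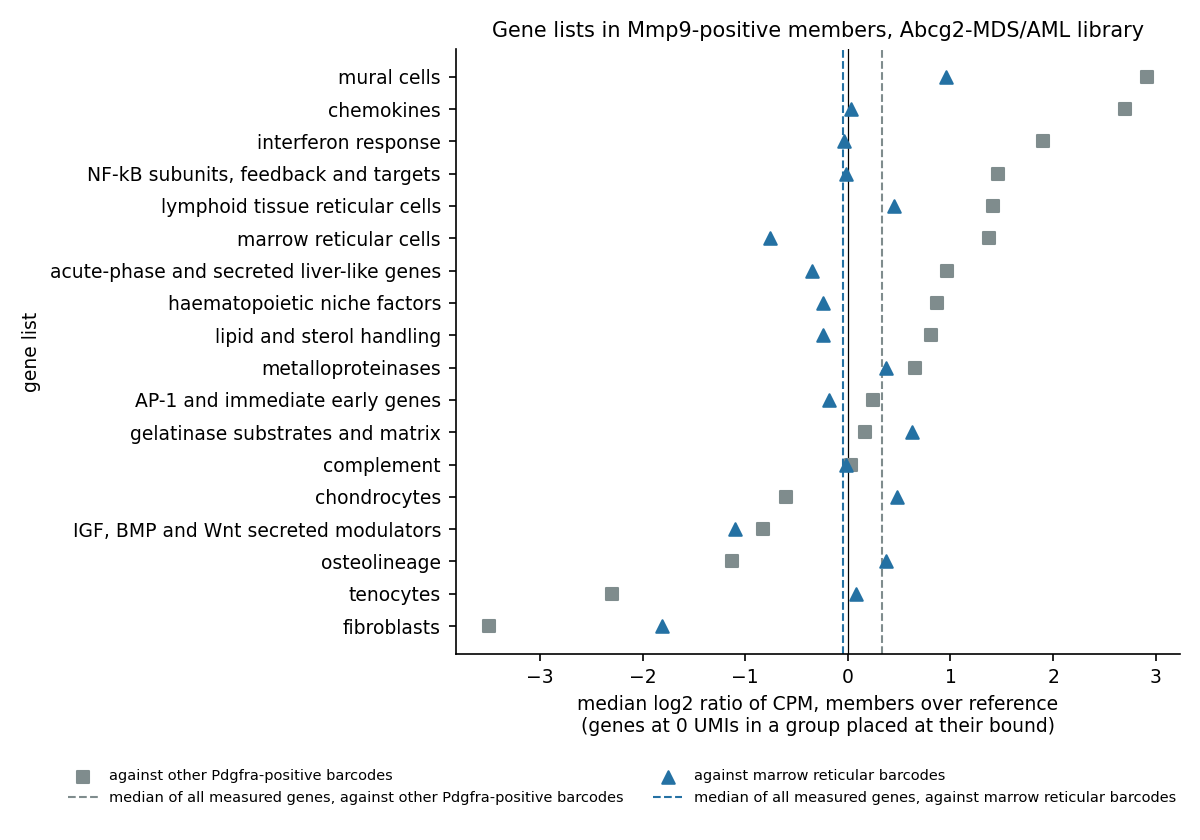
Median log2 ratio of CPM (horizontal axis) of each gene list (vertical axis) in members, against the other Pdgfra-positive barcodes (squares) and against the marrow reticular barcodes (triangles), with genes at 0 UMIs placed at their bound; dashed lines are the medians over all measured genes, 0.33 and -0.05. Chemokines, interferon response and NF-kB lists lie between 1.47 and 2.70 against the first reference and between -0.04 and 0.03 against the second, and the mural list is at 0.96 against the second.

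The nearest reference was the stromal non-members of cluster 7, in which Mmp9 stood at 61.0 CPM. Against them, members had 169 of 6197 genes at least 2-fold higher (2.73%) and 145 lower (2.34%), and for 61 of the 169 free RNA stood at or above the members. Tagln was at 278 against 60.0 CPM and Acta2 at 115 against 31.5. Cbln1 was at 14.9 against 143, Apod at 262 against 1266 and Spp1 at 4279 against 13925. These genes were chosen here because they also differed from the reticular barcodes or were abundant. Tagln and Acta2 thus stood higher in members than in the rest of the cluster, but only 31 members held Tagln and 21 held Acta2. Without the barcode that held most of it, Acta2 was at 93.2 CPM, under its free RNA level given above. The part of free RNA or of a few barcodes in these differences was not tested.

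Some genes differed between members of low and high Mmp9 level. Barcodes were thinned to 2000 UMIs and grouped by 2, 3 to 9, and 10 or more Mmp9 UMIs before thinning, or by 0 to 1, 2 to 3, and 4 or more after it. By the first grouping, Meox1 stood at 55.6, 214 and 328 CPM (intervals 15.1 to 142, 145 to 306 and 197 to 512), and by the second at 61.0, 176 and 349 CPM. Serpina3n went the other way, at 403, 250 and 69.0 CPM by the first and 390, 225 and 151 CPM by the second. Meox1 and Serpina3n thus kept their order in both groupings.

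Tagln and Spp1 depended on the grouping. Tagln stood at 13.9, 164 and 483 CPM by Mmp9 UMIs before thinning and at 122, 98.0 and 372 CPM by those after it, and its 483 CPM rested on 28 UMIs in 17.2% of 29 barcodes. Spp1 stood at 8556, 5279 and 1655 CPM by the first grouping and at 3415, 10284 and 1419 CPM by the second, with no order in the latter. Spearman's rho with Mmp9 over the 135 thinned members was 0.08 for Tagln, 0.03 for Spp1, 0.24 for Meox1 and -0.21 for Serpina3n. All these groups use the rule's own gene and a few barcodes can set a value, so they are a description.

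For Kitl, C3 and Vcam1 the intervals of the lowest and highest groups overlapped. By Mmp9 UMIs before thinning, Kitl was at 958, 800 and 741 CPM, C3 at 1569, 1714 and 1552 and Vcam1 at 1250, 1636 and 1569. Hp was at 3639, 4786 and 5534 CPM and Apoe at 7000, 8707 and 10328, with intervals that did not overlap between those groups. These intervals cover counting error and not the spread between barcodes. Spearman's rho with Mmp9 over the 135 thinned members was 0.04 for Hp and 0.17 for Apoe. Within members, Tagln and Acta2 went together (Spearman rho 0.50 over 135 thinned barcodes of 1 library, a description without a test).

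Marrow reticular barcodes chosen without Mmp9 showed how these genes stood in each library. Mmp9 was at 0.715 CPM in WT_A1 (504 barcodes), 0.717 in NHD13Tg (1259), 4.50 in Control (301) and, with 90 barcodes, 236 in Abcg2-MDS/AML, the order used for the other genes. Bst1 had 0 UMIs in the first 3 libraries and stood at 23.2 CPM in the last. Cxcl13 was at 51.8, 14.5, 74.2 and 797 CPM, Ccl19 at 117, 37.7, 89.2 and 788, and C3 at 282, 207, 237 and 1156. Abcg2-MDS/AML was the highest library for each of these 5 genes, and its interval did not overlap the others. Its 90 barcodes included 15 members. In the 75 that were not members, Mmp9 and Bst1 each stood at 11.6 CPM and C3 at 999. The lymphoid tissue reticular list, which holds Cxcl13 and Ccl19, summed to 1133 CPM in those 75. Whether the 90 held the barcode with 231 of the members' Cxcl13 UMIs was not tested, and the intervals do not cover such a barcode.

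Reticular genes gave the opposite order. Cxcl12 was at 16918, 16042, 15394 and 1828 CPM, Gas6 at 1762, 1704, 1828 and 371 and Ebf3 at 507, 448, 511 and 114, in each case lowest in Abcg2-MDS/AML. Kitl was at 1358, 1538, 2002 and 744 CPM. Hp was at 6452, 11633, 4879 and 5449 CPM, so its value in Abcg2-MDS/AML lay within the range of the other libraries. Free RNA of Cxcl12 was also lowest in Abcg2-MDS/AML, at 254 CPM against 722 to 4497, and its part in these values was not tested.

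**Figure D5:**
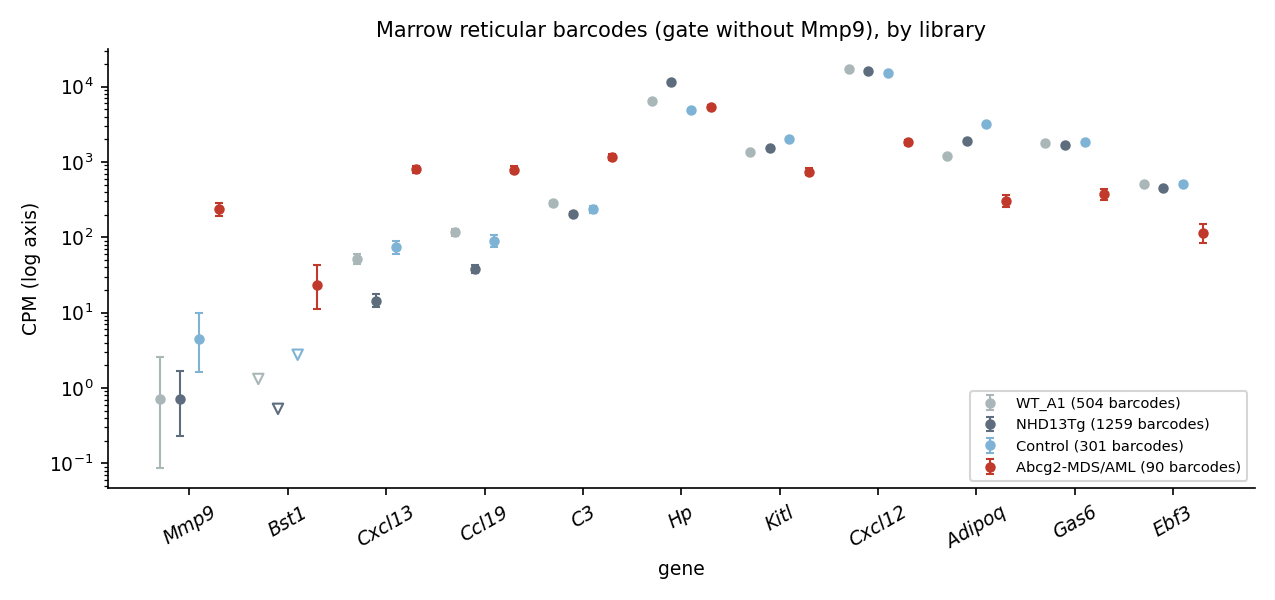
CPM (vertical log axis) of 11 genes in marrow reticular barcodes chosen without Mmp9, in 4 libraries with 504, 1259, 301 and 90 barcodes; bars are exact 95% Poisson intervals and open triangles upper limits for genes at 0 UMIs. Mmp9, Bst1, Cxcl13, Ccl19 and C3 are highest in Abcg2-MDS/AML, at 236 CPM for Mmp9, and Cxcl12, Adipoq, Gas6 and Ebf3 are lowest there. Of the 90 barcodes of Abcg2-MDS/AML, 15 are members.

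The rule found 10 barcodes in the other libraries. The 6 of NHD13Tg held 1312 Col1a1 and 2200 Spp1 UMIs in sum, and 3 held S100a8. All 6 had UMIs of Ctsk, 20 among 41106 UMIs in sum, while the osteoclast gene Acp5 and the macrophage gene Lyz2 had 0. Ctsk was also found in the other Pdgfra-positive barcodes of Abcg2-MDS/AML, as given above. The 2 of WT_A1 held 102 Cxcl12 and 64 Hp UMIs among 11765 UMIs in sum, and the 2 of Control held 69 and 16 among 6759. The 135 members of Abcg2-MDS/AML held 622 Cxcl12 and 3067 Hp UMIs among 672081. Bst1 was at 0 UMIs in all 10. Kitl, Apoe, Hp and Vcam1 were found in both WT_A1 and both Control barcodes, and Kitl, Apoe and Vcam1 each in 4 of the 6 of NHD13Tg. The NHD13Tg barcodes thus carried bone matrix genes beside some of these, and the WT_A1 and Control ones carried reticular genes. Relative to their UMIs, the WT_A1 and Control barcodes held more Cxcl12 than the members did.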

How the data were processed

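The labels' protocols give droplet 3' libraries (Chromium Next GEM v3.1, NextSeq 500) of sorted stromal cells. The deposited matrices hold raw UMI counts per gene and barcode for all barcodes, unfiltered, made with Cell Ranger, per the file headers. The submitters' processing notes name Cell Ranger 3.1.0 and Seurat 3.2.3, and the genome build is not given in the sources used here. The other deposited files hold the barcodes and gene names of the matrices. Each matrix summed to between 36133716 and 46033790 UMIs.

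Counts were summed over groups of barcodes and expressed as CPM with exact Poisson 95% intervals. Ratios added 0.5 to each count and have exact conditional binomial intervals, and shares have Clopper-Pearson intervals. A gene was called at 2-fold, with an interval leaving out 1 and at least 20 CPM in either group; lists used 1.5-fold and 5 CPM. No test between groups was run, since each group is 1 library. Thinning drew 2000 UMIs per barcode. Clusters used 2000 variable genes without the 5 genes of the rule, 30 components, 15 neighbours and Leiden resolution 1 (scanpy 1.11.5, leidenalg 0.10.2, scikit-learn 1.9.0; Python 3.11.15, numpy 2.4.6, scipy 1.17.1, pandas 2.3.3). No cell type file was used, so group names were rebuilt from markers. Scrublet marked 0 to 4 barcodes per library at its own threshold, which was taken not to have worked, so doublets were kept, and an alternative removed the highest scores at 0.8% per 1000 barcodes. Comparison scripts were tested on simulated data.

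Members and lists were chosen with earlier results of these data known. Named genes were all proposed markers, the 15 largest ratios in each direction against the other Pdgfra-positive barcodes and 8 against the reticular ones (a UMI in at least 5% of barcodes, under 20% of UMIs in 1 barcode, free RNA below the higher group), up to 4 of the most abundant called genes of each list, and genes of the sort and of other cell types. Further list members, Ccl5, Ccl8 and genes compared within cluster 7 were chosen after their values were seen, as were the cluster 7 reference and the reticular barcodes chosen without Mmp9. Alternatives varied the limits on UMIs, mitochondrial share and Mmp9, the receptor and blood gene conditions, doublets, depth, scaling, free RNA, the CPM minimum and the reference.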

Additional observations from a re-analysis of the deposited data

How the results depend on the processing

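The share of members in Abcg2-MDS/AML, 2.42%, was 3.92% with 1 Mmp9 UMI, 1.77% with 3, 1.68% with Pdgfra required and 1.40% after thinning every barcode to 2000 UMIs. Genes higher than in the other Pdgfra-positive barcodes numbered 1077, and 635 with median-of-ratios scaling, 1720 without a CPM minimum and 590 with a minimum of 50 CPM; lower genes numbered 399, and 639, 641 and 232. With the stromal non-members of cluster 7 as reference, an alternative chosen after seeing the data, they numbered 169 and 145. Against the marrow reticular barcodes, the 227 higher and 252 lower genes became 138 and 126 with a minimum of 50 CPM. The CPM minimum changes how many genes are considered, and the cause of the other differences was not tested. Of 1469 values of 165 gene ratios under the alternatives, 1181 moved by no more than their counting error, 288 moved further, and 0 of the called ones changed sign; leaving out the members outside cluster 7 was also chosen after seeing the data. Some ratios moved by over 1.5-fold, and their values are given on the log2 scale. Without the barcodes of highest doublet score they included Tagln (4.06 to 4.91) and Mmp2 (-3.34 to -4.10). After thinning they included Timp1 (1.08 to 1.69) and Acta2 (2.65 to 3.30). Against the reticular barcodes at 4000 UMIs or more they included Adra2a (4.19 to 3.21) and Rarres1 (3.74 to 2.82). Depth limits the reticular comparison, whose 75 reference barcodes held 343369 UMIs. No paired analysis was possible because each group is 1 library, so the groups share a single replicate number.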
